A study of Mus musculus with 16 samples.

Results

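The expression of 9 transcription factors that define microglia and macrophages was examined in cells sorted from mouse brain: Sall1, Sall3, Maf, Mef2a, Mef2c, Spi1, Irf8, Runx1 and Cebpb. They were taken by name, and all 9 were found among the 18580 genes of the series. RNA was sequenced by SMART-seq2, a full-length method for low input, in microglia (CD11b+ with low or intermediate CD45) and in macrophages (CD11b+ with high CD45, a gate that, per the methods, takes in macrophages of the brain borders, infiltrating macrophages and also NK cells and neutrophils). The mice were WT (C57BL/6N) or CD163KO littermates that carry the constitutive CD163tm1.1(KOMP)Vlcg deletion. Male and female mice of 12 weeks received murine α-syn in the striatum of both sides, either as monomers (MONO, the control protein) or as preformed fibrils (PFF), and the brains were taken 2 months p.i. All mice therefore received α-syn, and no uninjected brain was analysed here. There are 16 libraries, 1 for every combination of the factors (population, treatment, sex, genotype), and the methods mention triplicates without saying whether the tables hold pooled mice. Comparisons pooled libraries over the other factors, so that p-values measure the spread between these libraries, which is biological and technical together. That spread also holds any interaction between the factors, for which the fits have no term.

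Macrophages of every tissue depend on Spi1 (PU.1), an ETS factor that opens myeloid enhancers, and on its partners Irf8, Runx1 and the C/EBP factors. Microglia, which are seeded into the brain in embryonic life, add Sall1, a zinc finger factor kept on by TGF-β from the brain environment, and the MADS-box factors Mef2a and Mef2c, which bind the enhancers of homeostatic genes. Maf (c-Maf) belongs to the large MAF family that restrains proliferation and supports resident macrophage programmes, while Cebpb is strongly used by monocyte-derived and inflammatory cells. The levels below are FPKM, in which the estimated count is divided by transcript length and by the depth of the library, and can be compared between genes.

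The sorted populations carried the markers of their labels. The summed FPKM of 12 homeostatic microglia genes lay between 20020 and 46220 in microglia and between 1222 and 2829 in macrophages, and that of 12 border-associated macrophage genes between 29.3 and 171 in microglia and between 1956 and 5330 in macrophages. Cd163 had 748 to 5275 counts in WT and 0 to 1 in CD163KO macrophages. It was low in all microglia, with 0 to 101 counts in WT and 5 to 23 in CD163KO libraries. The estimated counts of a library summed to between 8648751 and 21433841. One property of the libraries cut across the labels. In 6 of the 8 matched groups, transcripts over 4000 bases took 3.87% to 7.29% of the counts of the macrophages and 19.4% to 22.0% of those of the microglia. In male WT mice given PFF and in male CD163KO mice given MONO the profiles were crossed, with 16.8% and 16.5% in macrophages and 6.74% and 9.69% in microglia. The study left male CD163KO MONO mice out of its analysis for inconsistent technical replicates, and the fits below also leave them out. So 7 matched groups enter, 1 of them crossed. The paper also describes batches of mice, a correction for batch and the removal of outlier samples. The labels used here name no batch, so no fit holds a term for it. Since 5 of the members have transcripts over 4000 bases, the results on the members are given beside these libraries. Among female libraries, counts of 4 Y-linked genes were at most 2 except in the CD163KO MONO microglia, with 799, and results without it are given where they differ.

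Spi1 and Irf8 were the most abundant members in microglia, with median FPKM of 215 and 196 over 8 libraries, and they took the first 2 places in every microglia library. Sall1 was next in every microglia library with a median of 102. Mef2c (58.5) and Mef2a (57.2) followed and changed places between libraries, then Maf (25.1), Sall3 (20.5), Runx1 (12.4) and Cebpb (3.18). In macrophages, Spi1 was first in every library (median 200), and Cebpb (52.2) and Irf8 (34.1) came next. Cebpb ranged from the 2nd to the 8th place among macrophage libraries, so its place is not fixed. Maf (9.53), Mef2c (8.65), Mef2a (5.04) and Runx1 (3.00) overlapped in their ranges, and Sall1 (0.270) and Sall3 (0.05) were last. The populations thus shared Spi1 at the top of the order and differed most in the place of Sall1 and Cebpb.

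**Figure D1:**
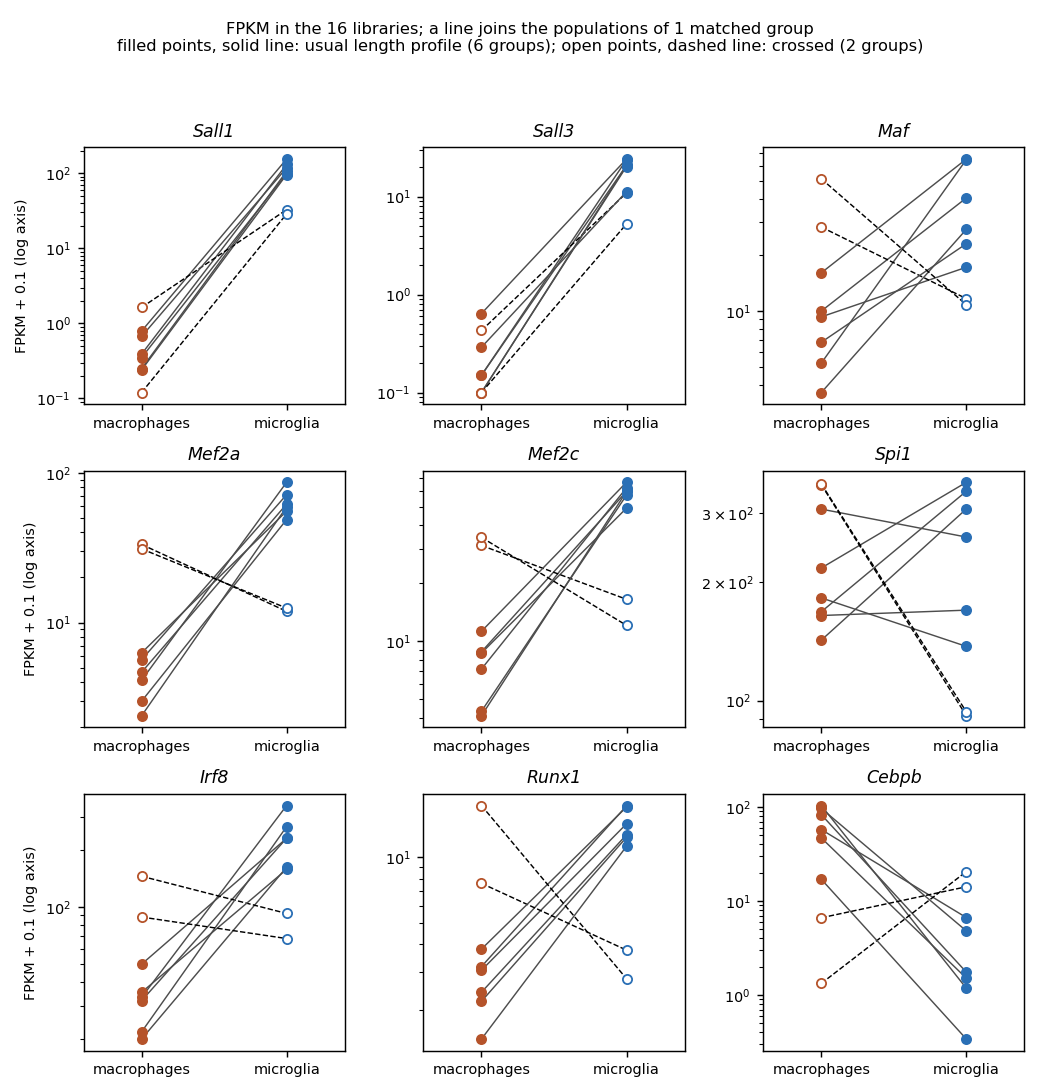
FPKM (+ 0.1, log axis) of the 9 genes in macrophages (brown) and microglia (blue), 1 point per library and 1 line per matched group of sex, genotype and treatment. Sall1 and Sall3 rose from macrophages to microglia along all 8 lines, while the 2 dashed lines of the crossed groups ran against the other 6 for Maf, Mef2a, Mef2c, Irf8, Runx1 and Cebpb.

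Microglia and macrophages were then compared within matched groups, which asks which identity factors separate the resident cell from the CD45 high population. With edgeR's quasi-likelihood test over 7 matched groups, 5 of the 9 members were higher in microglia (Sall1, Sall3, Mef2a, Mef2c and Irf8), where 6.64% of the 13704 genes tested were called higher. These shares rest on 2499 calls in both directions, which became 4869 without the crossed male WT PFF group. Cebpb and Spi1 were lower, where 11.6% of all genes were called lower, and Maf and Runx1 were not called. The median log2 fold change was 1.03 over the 9 members and 0.37 over all genes tested. With library totals in place of TMM factors, which correct for differences in RNA composition, the median of all genes moved to 1.96, so the difference of a gene from this median is given beside its fold change. In bulk samples a lower level can come from fewer cells of a type or from less RNA per cell, and these cannot be told apart.

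Sall1 and Sall3 belong to the spalt-like zinc finger family of transcriptional repressors. Sall1 had FPKM of 28.6, 102 and 154 in microglia (lowest, median and highest of 8 libraries) and of 0.0200, 0.270 and 1.53 in macrophages. The lowest microglia library lay far above the highest macrophage library. Sall1 was 7.16 ± 0.62 (SE) higher in microglia on the log2 scale (adjusted p = 1.41e-05, edgeR quasi-likelihood with Benjamini-Hochberg adjustment), or 6.79 above the median of all genes. Within the fitted libraries its counts were 2812 to 11008 in microglia and 2 to 58 in macrophages. In male WT PFF mice, where macrophages held 2 counts, Sall1 was at least 913-fold higher in microglia when 3 counts are taken as the floor per library. Sall3 had FPKM of 5.16, 20.5 and 24.1 in microglia and of 0, 0.05 and 0.540 in macrophages. It was listed at 0 counts in 3 of the 7 fitted macrophage libraries. There the same floor, on library totals without TMM factors, gave at least 216- to 979-fold more in microglia. The 979-fold was in male CD163KO PFF mice, with TMM factors of 0.48 in macrophages and 1.64 in microglia. The 216-fold was in male WT PFF mice, with factors of 1.45 and 0.46. In the other groups the FPKM ratio was 32.8 to 474. The fitted difference was 7.14 ± 1.08 (adjusted p = 7.36e-04), or 6.77 above the median of all genes, which depends on the prior count for a gene with zeros. The other spalt-like genes were not called: Sall2 had a median FPKM of 3.21 in microglia and 0.325 in macrophages (log2 fold change 1.54 ± 0.84, adjusted p = 0.232), and Sall4 was too low to be tested.

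The 150 bases before the RefSeq start of Sall1 are shown because Sall1 had, with Sall3, the largest difference in favour of microglia among the members (GRCm38.p6, minus strand, chr8:89044163-89044312). Capitals mark the CCAAT box, read on either strand, which 33.8% of 32851 RefSeq promoter windows of 250 bases hold. The letters GAGGAA of the PU.1 core (23.3% of windows) and TGTGGT of the RUNX core (4614 of the windows) are in neither strand of the 250 bases before this start.
Sall1: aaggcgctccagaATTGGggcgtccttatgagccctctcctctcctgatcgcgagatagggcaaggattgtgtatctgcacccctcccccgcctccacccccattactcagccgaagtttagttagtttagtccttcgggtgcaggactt

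The Sall genes kept their difference in the crossed groups. In female and male groups with the usual profiles the microglia-minus-macrophages difference of log2(FPKM + 1) for Sall1 was 6.24 to 6.67, and in the 2 crossed groups it was 3.73 and 4.86. These were male CD163KO MONO and male WT PFF. After scaling the FPKM by the TMM factors the values were 5.40 to 5.64 in the usual groups and 4.25 and 5.96 in the same crossed groups. Sall3 differed by 3.35 to 4.55 in the usual groups and by 3.15 and 2.62 in the crossed ones before scaling. After it the values were 2.61 to 3.76 and 3.48 and 3.61. A fit over all 16 libraries with a term for the length profile (long above 12% of counts in transcripts over 4000 bases, short below) called 16.8% of genes higher and 10.5% lower in microglia. In it Sall1 was 7.27 ± 0.77 and Sall3 7.20 ± 1.19 higher in microglia, with adjusted p of 5.87e-05 and 0.00112. With trends of length and GC content removed as offsets, Sall1 (6.02) and Sall3 (5.82) were still called. Over 14 settings Sall1 lay 5.17 to 7.29 and Sall3 2.92 to 7.76 above the median of all genes. Both were lowest with limma on log2(FPKM + 1).

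Mef2a and Mef2c, whose proteins pair on AT-rich enhancer sites, were higher in microglia but moved with the length profile. Mef2a had FPKM of 48.6 to 86.4 in the 6 microglia libraries with the usual profile and of 2.28 to 6.17 in their macrophages. In the crossed groups it was 33.1 in macrophages and 11.8 in microglia (male CD163KO MONO), and 31.0 and 12.4 (male WT PFF). Every usual group thus had more Mef2a in microglia and both crossed groups had more in macrophages, although after TMM scaling the male WT PFF group had 0.32 more in microglia (log2). Mef2a was 1.84 ± 0.28 higher in microglia in the fit (adjusted p = 7.96e-04), or 1.47 above the median of all genes. Mef2c had FPKM of 49.0 to 66.8 in microglia and 4.00 to 11.2 in macrophages of the usual groups, and of 16.4 and 12.0 in microglia and 31.3 and 34.5 in macrophages of the crossed groups. Its fitted difference was 1.06 ± 0.23 (adjusted p = 0.00795), or 0.69 above the median of all genes. The order also returned when libraries of one length profile were set side by side. Among long-profile libraries, the scaled FPKM of Mef2a was 29.6 to 50.4 in 6 microglia and 21.4 to 22.9 in 2 macrophage libraries. Among short-profile libraries it was 13.8 to 26.8 in 2 microglia and 5.80 to 9.10 in 6 macrophage libraries. Within each profile, microglia lay above macrophages without overlap for Sall1, Sall3, Mef2a and Mef2c, 4 of the 9 members, where 10.9% of 11925 genes did so on scaled FPKM. The reverse held for 0 members and for 7.92% of genes. With the profile term Mef2a was 0.99 ± 0.20 (adjusted p = 0.00376) and Mef2c 0.65 ± 0.18 (adjusted p = 0.0206) higher in microglia, but the median of all genes in that fit was 1.07, so that both lay at or under it (-0.08 and -0.42). With length and GC offsets neither was called (0.79 and -0.03), and they lay 1.05 and 0.23 above the median of all genes in that fit. The length profile itself carried a difference in Mef2a, 1.09 ± 0.20 higher in long-profile libraries (adjusted p = 0.00464), in a term that called 2.87% of genes higher and 11.8% lower.

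The 150 bases before the main start of Mef2a are shown because its fold change moved most with the profile among the members called higher (GRCm38.p6, minus strand, chr7:67372859-67373008). Capitals mark 2 copies of the PU.1 core letters, and 5 of the 7 listed Mef2a transcripts start at this point in the GENCODE annotation.
Mef2a: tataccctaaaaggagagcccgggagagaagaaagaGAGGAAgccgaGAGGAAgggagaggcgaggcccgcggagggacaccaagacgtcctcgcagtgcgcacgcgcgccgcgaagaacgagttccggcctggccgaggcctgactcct

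**Figure D2:**
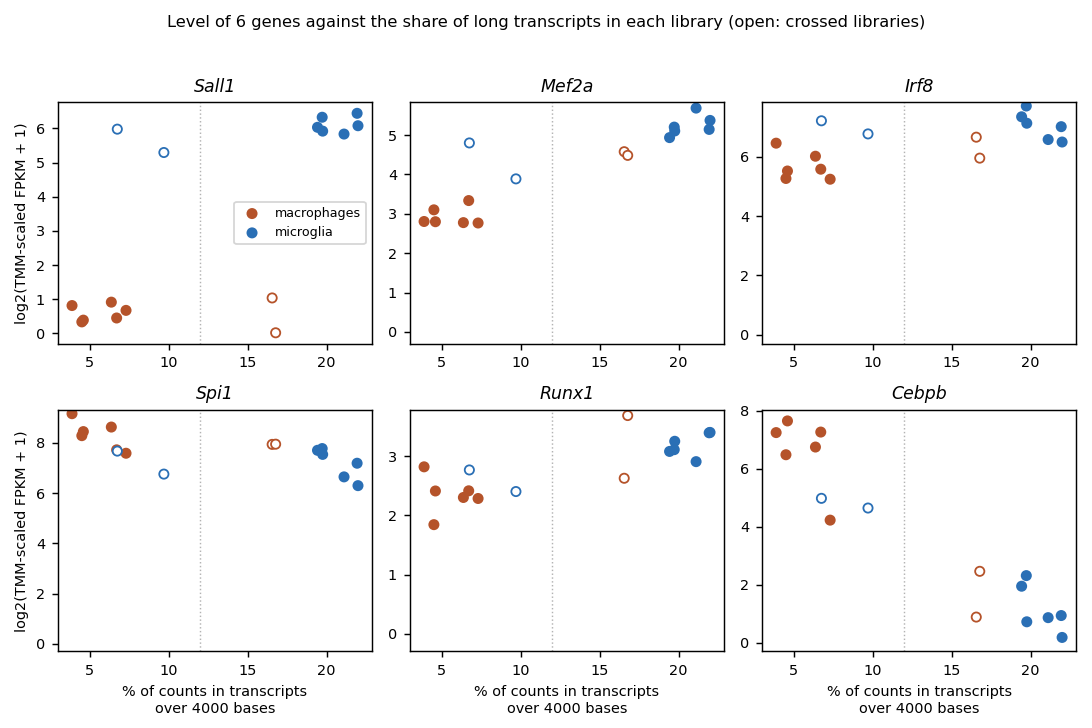
log2(TMM-scaled FPKM + 1) of 6 genes against the share of counts in transcripts over 4000 bases, 1 point per library, with macrophages brown, microglia blue, crossed libraries open and the dotted line at 12%. Sall1 separates by population at any share, Mef2a rises with the share in both populations, and Cebpb is low to the right of the line in both.

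Irf8 and Spi1, the partners at myeloid enhancers, behaved differently from each other. Irf8, which is needed for microglia and monocyte development, had FPKM of 158 to 344 in microglia and 19.9 to 49.6 in macrophages of the usual groups. In the crossed groups it was 92.2 in microglia and 145 in macrophages of male CD163KO MONO mice, and 67.8 and 88.2 in male WT PFF mice. It was 1.03 ± 0.19 higher in microglia (adjusted p = 0.00291), or 0.65 above the median of all genes. After TMM scaling it was higher in microglia in each of the 8 matched groups, by 1.00 to 1.83 in the usual and by 0.11 and 1.26 in the crossed groups. Sall1, Sall3 and Irf8 were the 3 members with this pattern, which 13.8% of 11925 genes shared. Irf8 was also called with the profile term (0.89 ± 0.18, adjusted p = 0.00361), where it lay 0.18 under the median of all genes, and was not called with length and GC offsets (0.09, adjusted p = 0.879), where it lay 0.34 above that median.

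Spi1 had similar FPKM in the populations, 142, 200 and 355 in macrophages and 91.3, 215 and 359 in microglia (lowest, median and highest of 8 libraries). In FPKM it was higher in microglia in 4 of the 6 usual groups and lower in both crossed groups. Scaled by TMM, Spi1 was lower in microglia in all 8 matched groups, as 7.72% of 11925 genes were, by 0.18 to 1.64 in the usual and by 0.28 and 1.18 in the crossed groups. The fit gave -1.35 ± 0.27 (adjusted p = 0.00427), which is 1.72 under the median of all genes. Its sign followed the scaling, with 0.07 for library totals and 0.05 for limma on log2(FPKM + 1), neither called. Relative to the median of all genes it was lower in each of the 14 settings compared with that median, between -2.15 and -1.01. With 1473 bases Spi1 is the shortest member, and with length and GC offsets it was -1.79 and still called.

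Maf and Runx1 did not pass the test between the populations. Maf had FPKM of 17.0 to 65.2 in microglia and 3.54 to 15.9 in macrophages of the usual groups, and of 11.5 and 10.7 in microglia and 28.1 and 51.0 in macrophages of the crossed groups. The microglia libraries spread widely, with 65.2 in WT males given MONO and 64.8 in the library labelled female CD163KO MONO, and at most 40.3 elsewhere. The fitted difference was 0.19 ± 0.32 (adjusted p = 0.712), which is -0.18 relative to the median of all genes, and -0.03 without the female CD163KO MONO groups. With library totals Maf was called higher in microglia (1.75, adjusted p = 0.0270) but lay at -0.21 relative to the median of all genes in that fit. Runx1, the factor that starts definitive blood formation, had FPKM of 11.2 to 17.1 in microglia and 1.37 to 3.70 in macrophages of the usual groups, and of 3.66 and 2.68 in microglia and 7.51 and 17.2 in macrophages of the crossed groups. The fitted difference was 0.50 ± 0.32 (adjusted p = 0.308), or 0.13 above the median of all genes. Without the male WT PFF group it was 0.72 and called (adjusted p = 0.0241), and with library totals it was 2.15 and called (adjusted p = 0.0127), or 0.20 above the median of that fit. It was also called with limma on log2(FPKM + 1) (1.46, adjusted p = 0.0395) and on log2(FPKM + 0.1) (1.72, adjusted p = 0.0440), while with the profile term it was 0.07 ± 0.27 (adjusted p = 0.866). Within each length profile the microglia and macrophage libraries overlapped for both genes.

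Cebpb, a basic leucine zipper factor of inflammatory myeloid genes, was higher in macrophages and differed more between length profiles than between populations. It had FPKM of 17.0, 70.3 and 103.7 in macrophages of the 6 usual groups (lowest, median and highest) and 0.240, 1.53 and 6.57 in their microglia. In the crossed groups the order was the opposite, with 1.23 in macrophages and 20.5 in microglia of male CD163KO MONO mice and 6.54 and 14.1 in male WT PFF mice. Runx1 and Cebpb were the members that, after scaling, went one way in all usual groups and the other way in both crossed groups, as 9.10% of genes did. Cebpb was -6.43 ± 1.17 in the fit (adjusted p = 0.00238), or -6.81 relative to the median of all genes. With the profile term the population difference was -1.57 ± 0.38 (adjusted p = 0.0103), and the profile term held -5.42 ± 0.46 for long against short libraries (adjusted p = 1.47e-04). Within the long profile the FPKM were 0.240 to 6.57 in microglia and 1.23 and 6.54 in macrophages, and within the short profile 14.1 and 20.5 in microglia and 17.0 to 103.7 in macrophages, so the populations overlapped in both. The 12 neutrophil marker genes summed to 82450 and 71530 FPKM in the crossed macrophages, against 22170 to 134700 in the other macrophages, with none of the 12 at 0. In the crossed microglia these genes summed to 952 and 1401, against 963 to 2731 in the other microglia, and none of the 12 was at 0. The part of neutrophils in the level of Cebpb was not tested.

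Cebpb has a GC content of 67.2%, the highest of the members, against 43.8% to 58.9% for the others. Its promoter is shown for its base composition (GRCm38.p6, plus strand, chr2:167688765-167688914). Of these 150 bases 82.0% are G or C, and 81.6% of the 250 bases searched, against a median of 52.4% over all windows. It is not alone in this, since further Sall1 windows, not printed here, hold 80.0% and 81.3% in their 150 bases. None of the 3 motifs searched is in the 250 bases of Cebpb, so nothing is in capitals.
Cebpb: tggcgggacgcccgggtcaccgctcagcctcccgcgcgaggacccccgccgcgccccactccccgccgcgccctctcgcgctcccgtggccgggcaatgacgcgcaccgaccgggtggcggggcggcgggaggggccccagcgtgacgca

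**Figure D3:**
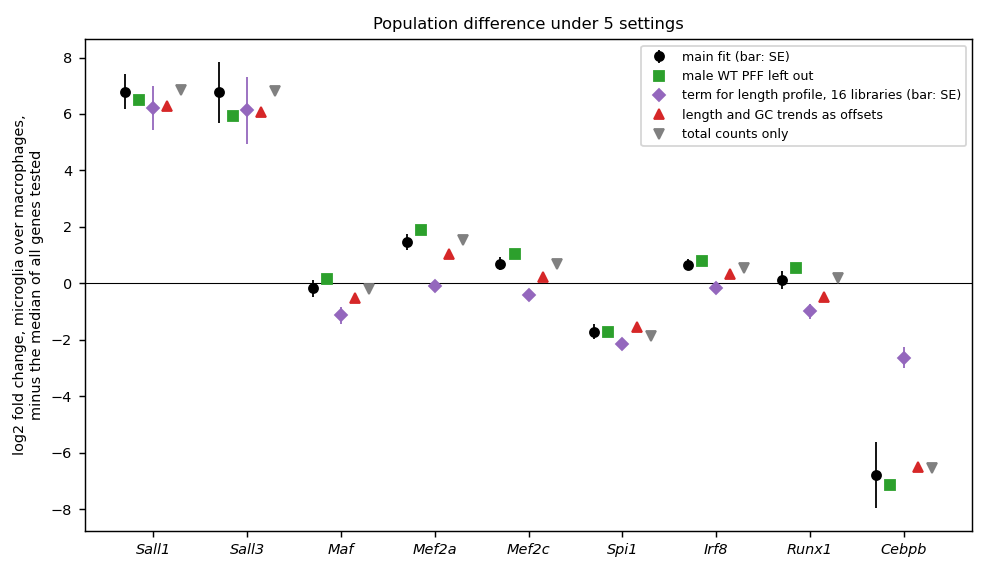
log2 fold change of microglia over macrophages minus the median of all genes tested, for the 9 genes under 5 settings, with bars of 1 SE where the fit gives one. Sall1 and Sall3 stay near 6 to 7 and Spi1 stays under 0, Mef2a, Mef2c and Irf8 come down to the median with the length profile term, and Cebpb comes up from -6.81 to -2.64.

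Of 28 relatives of the members, 24 could be tested, and 4 were higher and 4 lower in microglia, where 6.64% and 11.6% of all genes were, while 16 were not called. Their median log2 fold change was -0.36, against 0.37 for all genes. Relatives in the C/EBP family were called in both directions. Cebpa, which specifies the myeloid lineage, was higher in microglia (1.76 ± 0.29, adjusted p = 0.00116) and so was Cebpg (2.19 ± 0.51, adjusted p = 0.0107), while Cebpe, the factor of late granulocytes, was lower (-6.30 ± 1.35, adjusted p = 0.00654). Cebpd was -1.38 ± 0.46 and not called (adjusted p = 0.0596). Among interferon regulatory factors Irf5 was higher (0.84 ± 0.23, adjusted p = 0.0238) and Irf7, which drives type I interferon, was lower (-3.90 ± 0.73, adjusted p = 0.00294). Runx3 of lymphoid cells (-8.54 ± 2.32, adjusted p = 0.0245) and Spic, the PU.1 relative of iron-recycling macrophages (-7.96 ± 2.43, adjusted p = 0.0417), were lower in microglia, where their median FPKM was 0 and the highest 0.21 and 4.28. With the profile term Cebpa (1.90), Cebpg (2.61), Cebpe (-5.03) and Irf7 (-3.66) were called, and Irf5, Runx3 and Spic were not (adjusted p of 0.133, 0.222 and 0.967). The macrophage gate also held more of the markers of neutrophils, of which 12 of 12 were lower in microglia, of monocytes (7 of 8) and of NK and T cells (6 of 11 tested). Their part in these differences was not tested.

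Of 27 further transcription factors of microglia and macrophages, 26 could be tested, and 7 were higher and 7 lower in microglia, where 6.64% and 11.6% of all genes were, with a median log2 fold change of 0.35. The genes higher in microglia ran from 1.17 for Ikzf1, a lymphoid and myeloid zinc finger factor, to 3.24 for Smad3, which carries TGF-β signals to the nucleus. The largest changes were decreases. Pparg, a lipid-sensing nuclear receptor, was -9.44 ± 1.41 (adjusted p = 9.02e-04), at a median FPKM of 1.44 in macrophages and 0 in microglia. Bhlhe40, a basic helix-loop-helix repressor, was -5.12 ± 1.05 (adjusted p = 0.00525), Tfec, a relative of the MiT factors, was -4.92 ± 1.22 (adjusted p = 0.0152), and Id1, an inhibitor of helix-loop-helix factors, was -4.66 ± 1.30 (adjusted p = 0.0275). All of these p-values are from edgeR. With the profile term Bhlhe40 (-5.29), Tfec (-4.28) and Ikzf1 (0.93) were called, and Pparg, Id1 and Smad3 were not (adjusted p of 1.00, 0.429 and 0.0763). Smad3 and Ikzf1 were named after their values were seen.

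The transcripts of the members were compared for the genes with more than 1 RefSeq transcript and at least 20 counts in each fitted library. The shares are RSEM estimates and not unique reads. The exact two-sided sign-flip permutation test over 7 matched groups called none of 20 transcripts after adjustment. The smallest p it allows is 0.0156, and 3 transcripts had an unadjusted p under 0.05, but the smallest adjusted p was 0.156. The Runx1 transcript NM_001111023 held 59.3% of the Runx1 counts in microglia and 22.8% in macrophages on average, higher in 7 of 7 groups (difference 36.4 points, SD 16.3, exact p = 0.0156). The other transcript at this p, NM_001291195 of Mef2a, held 67.8% in microglia and 49.1% in macrophages (difference 18.7 points, SD 11.1), also higher in 7 of 7 groups. In male CD163KO MONO mice, a crossed group outside the test, both went the other way, with 19.3% in microglia and 85.5% in macrophages for NM_001111023 and 38.5% and 61.9% for NM_001291195. NM_001111021 of Runx1 was lower in microglia in 6 of 7 groups, with 31.2% against 65.0% (exact p = 0.0312, adjusted p = 0.208). The 3 RefSeq records of Cebpb have the same length and were given equal shares of 33.3% in all libraries, so they cannot be told apart.

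Runx1 is read from a distal and a proximal promoter, which give proteins with different N-termini. Transcripts of the distal start (NM_001111021 and NM_001111022) held 55.0% to 80.9% of the Runx1 counts in the 6 macrophage libraries with the usual profile and 2.18% to 66.3% in their microglia, and were lower in microglia in 7 of 8 matched groups. In the crossed groups the shares were 14.5% in macrophages and 62.1% in microglia of male CD163KO MONO mice, and 100% and 49.5% in male WT PFF mice. These sums were looked at after the transcript shares were known and are given with no test. The Runx1 counts behind them were 105 to 451 in the usual macrophages and 971 to 1491 in the usual microglia. One RefSeq promoter window is shown for each region, to set the start sites apart. The distal window reaches past the GENCODE start of its transcripts, and the proximal window belongs to NM_009821, while NM_001111023, which held most of the proximal counts, starts further downstream (GRCm38.p6, minus strand, chr16:92826075-92826224 for the distal and chr16:92697330-92697479 for the proximal one). Capitals mark CCAAT on either strand, present 2 times in each, and the PU.1 core, read as TTCCTC on this strand, in the proximal one. GC content was 46.7% and 60.0%.
Runx1 distal: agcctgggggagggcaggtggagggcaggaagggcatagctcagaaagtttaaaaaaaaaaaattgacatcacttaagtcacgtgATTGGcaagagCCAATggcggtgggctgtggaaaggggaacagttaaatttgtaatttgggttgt
Runx1 proximal: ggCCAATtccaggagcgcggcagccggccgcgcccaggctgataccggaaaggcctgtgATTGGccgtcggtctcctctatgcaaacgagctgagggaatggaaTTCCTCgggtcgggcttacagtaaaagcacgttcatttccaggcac

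**Figure D4:**
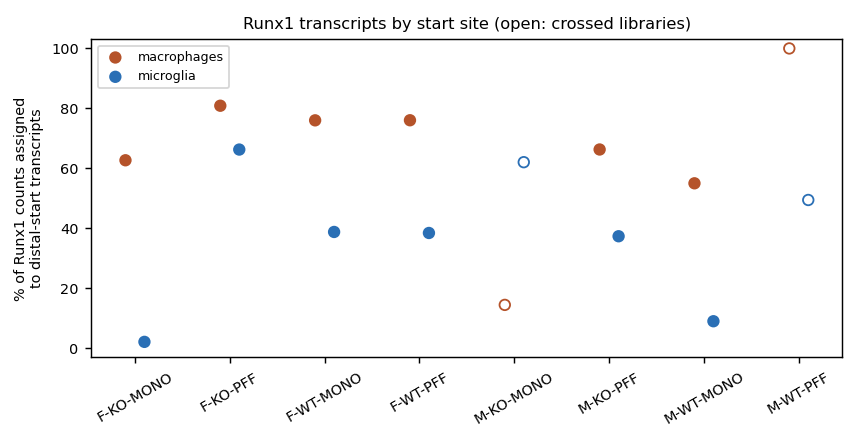
Share of the Runx1 counts assigned to transcripts of the distal start, in %, for each matched group (sex, genotype, treatment), with macrophages brown, microglia blue and crossed libraries open. Microglia lie under macrophages in 7 of 8 groups, the exception being male CD163KO MONO.

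PFF was compared with MONO in each population, to ask whether the identity factors responded to fibrils 2 months p.i. In macrophages none of the 9 members was called, and neither was any of the 11988 genes tested (0% higher and 0% lower), with 125 genes at an unadjusted p under 0.05. DESeq2 called 71 genes and limma on log2(FPKM + 1) called 1, none of them a member. The difference of Runx1 between PFF and MONO was 0.92 ± 0.56 (adjusted p = 1.00 with edgeR), with 3.06 FPKM with MONO and 2.31 with PFF in WT females, 1.37 and 2.94 in CD163KO females, 3.70 and 17.2 in WT males and 7.51 and 2.09 in CD163KO males. That of Irf8 was 0.60 ± 0.33 (adjusted p = 1.00). For Irf8 the macrophage FPKM were 49.6 with MONO and 33.1 with PFF in WT females, 19.9 and 31.8 in CD163KO females 35.2 and 88.2 in WT males and 145 and 21.7 in CD163KO males, whose MONO library was not in the fit. Both male pairs have different length profiles, and they went in opposite directions.

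In microglia, 0 of the 9 members and none of 12725 genes was called (0% higher and 0% lower), with 765 genes at an unadjusted p under 0.05. DESeq2 called 116 genes and limma on log2(FPKM + 1) called 1, none of them a member. At an unadjusted p under 0.05 were 2 members, Spi1 (1.09 ± 0.38 higher with PFF, adjusted p = 0.776) and Maf (-1.03 ± 0.37, adjusted p = 0.776). Spi1 had FPKM of 260 with MONO and 359 with PFF in WT females, 170 and 307 in CD163KO females, 137 and 93.5 in WT males and 91.3 and 341 in CD163KO males. After TMM scaling its PFF-minus-MONO differences were 0.58 in WT females, 0.89 in CD163KO females, 1.37 in WT males and 0.95 in CD163KO males. Irf8 had 231 and 344, 162 and 231, 158 and 67.8, and 92.2 and 266 in the same order. After scaling its differences were 0.70, 0.55, 0.72 and 0.58 in that order (fit 0.81 ± 0.39, adjusted p = 0.776). In this fit the median log2 fold change was 0.13 over all genes and 0.66 over the 12 homeostatic microglia genes. Spi1 and Irf8 were thus higher with PFF in each female pair on either scale, and in WT males only after scaling. The share of all genes that rose in each scaled pair was not counted. Each male pair holds 1 crossed library, and the CD163KO female pair holds the library with Y-linked counts. Maf had 40.3 FPKM with MONO and 27.3 with PFF in WT females, 64.8 and 17.0 in CD163KO females, 65.2 and 10.7 in WT males and 11.5 and 22.8 in CD163KO males. Without the library labelled female CD163KO MONO, the value of Maf moved to -0.37 and that of Spi1 to 1.14.

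CD163KO mice were compared with WT mice in the same way. In macrophages 1 of 11988 genes was called lower (0.00834%) and 0% higher, and this gene was no member; 79 genes had an unadjusted p under 0.05, DESeq2 called 56 genes and limma on log2(FPKM + 1) called 4. The largest member by its p was Irf8, at -0.61 ± 0.32 (adjusted p = 1.00). Its macrophage FPKM was 49.6 in WT and 19.9 in CD163KO females given MONO, 33.1 and 31.8 in females given PFF, 88.2 and 21.7 in males given PFF, and 35.2 and 145 in males given MONO, whose CD163KO library was not in the fit. Both male pairs have different length profiles, and the MONO pair went against the other pairs. In microglia no gene of 12725 was called (0% higher and 0% lower), with 166 at an unadjusted p under 0.05, 64 called by DESeq2 and 0 by limma on log2(FPKM + 1). Cebpb had the smallest p of the members (-1.65 ± 1.23, adjusted p = 1.00). It was 0.02 without the male WT PFF group, so its value rests on that crossed library. The Sall1 differences in microglia between CD163KO and WT, on log2(TMM-scaled FPKM + 1), lay between -0.78 and 0.05 over 4 pairs.

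**Figure D5:**
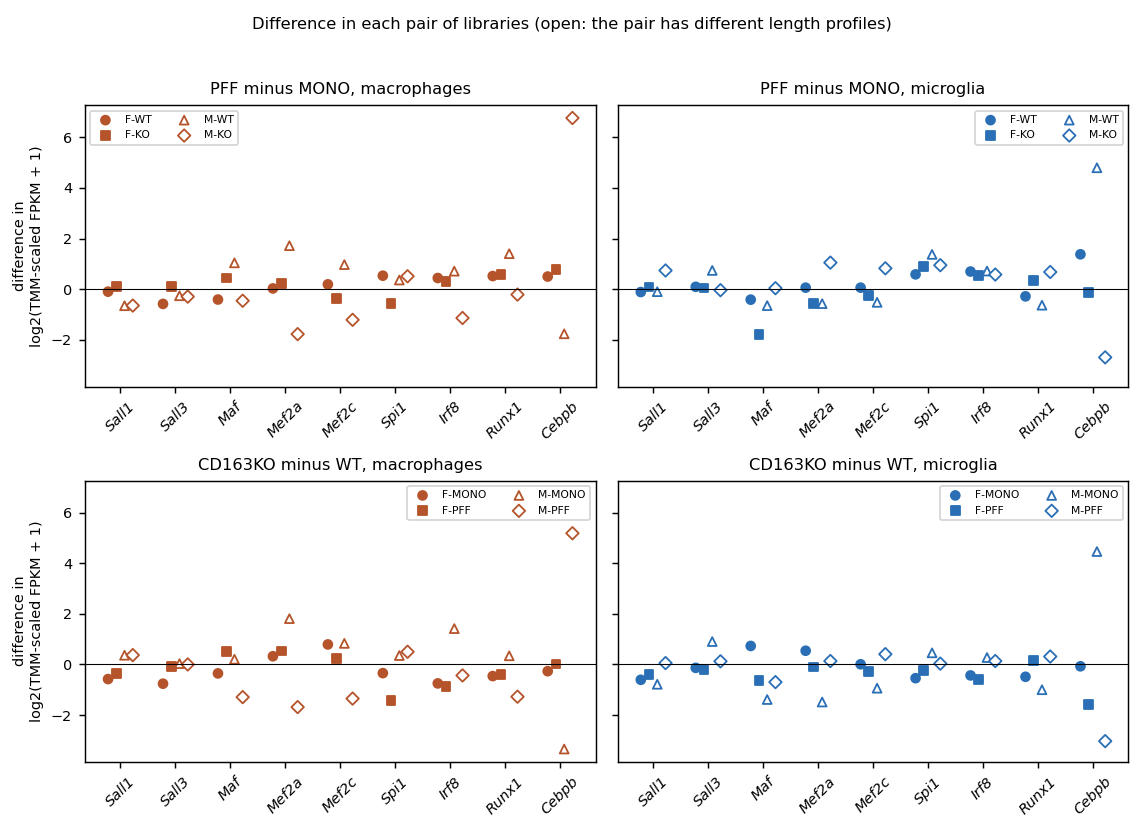
Difference in log2(TMM-scaled FPKM + 1) between PFF and MONO (upper row) and between CD163KO and WT (lower row) for the 9 genes, in macrophages (left) and microglia (right), 1 point per pair of libraries, named by sex (F, M) and by the factor held fixed. Open points are pairs with different length profiles, which hold the largest differences of Cebpb and Mef2a. Spi1 and Irf8 lie above 0 in the PFF pairs of microglia, and the share of all genes that do so was not counted.

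The genes whose levels followed each member most closely over the 16 libraries were listed among 6987 genes that reached 5 FPKM in 6 or more libraries, by Pearson's r of log2(TMM-scaled FPKM + 1). These r describe libraries that share the split between populations and the length profiles. Sall1 was followed by Col27a1 (0.99), Csnk1e (0.988) and Mlxipl (0.987), and Sall3 by Tmem52 (0.991), Col27a1 (0.988) and Ctc1 (0.987). Mef2a and Mef2c were each other's nearest gene (0.968), with Adam17 next for both. Irf8 was nearest to Itm2c (0.961), Spi1 to Scand1 (0.932), Maf to Birc6 (0.918), Runx1 to Ptprm (0.903) and Cebpb to Ubl3 (0.97).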

How the data were processed

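RSEM gave the deposited estimated counts and FPKM, which the authors ran after mapping with Bowtie2 (mm10 in the submitters' processing notes) and left without further normalization, 1 table per library. Reads of rRNA and of low quality had been removed. Transcripts were summed by RefSeq symbol (GRCm38.p6), which named 27632 of 27787 (99.4%), and unlisted ones were taken as 0.

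Counts were rounded. edgeR 4.0.16 (R 4.3.3) with TMM factors and quasi-likelihood tests compared populations with matched group as a block, and treatment and genotype in each population with sex, genotype and treatment as terms. Genes with an adjusted p of at most 0.05 (Benjamini-Hochberg) were called. DESeq2 1.42.0 and limma 3.58.1 on log2(FPKM + 1) were alternatives, limma after a filter of 1 FPKM in 2 libraries or more. The terms and offsets for transcript length were added after seeing the data. Promoter sequences are from RefSeq (GRCm38.p6), which matched 6 of the 9 members. The rule for named genes was all members, per list and fit the 4 largest called fold changes and relatives of the members' families, and per member the 3 nearest genes. The members and lists were chosen with earlier results of these data known. Shares of transcripts used Python 3.11.15 with scipy 1.17.1. Counting error alone limits the floors of 3 counts, since PCR copies are counted as reads. One relative among those called is not reported here.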

Additional observations from a re-analysis of the deposited data

Results flagged for a closer look

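In 18 groups of 8 libraries (9 genes in each population), Sall3 held a library far from the others in both populations, where chance gives about 1 such group in 20. Its scaled FPKM of 0.694 in WT female MONO macrophages was the highest of the macrophages, and its 6.30 in WT male MONO microglia the lowest of the microglia.

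Among 36 comparisons of the sexes (9 genes in each population, by genotype and by treatment), 5 had one sign in both female pairs and the other in both male pairs. All 5 were CD163KO-minus-WT differences, 2 of 9 members in macrophages and 3 of 9 in microglia, where 1384 and 1553 of 11925 genes had such signs. By treatment it was 0 of 9 in both, against 1060 and 828 genes. The difference between the sexes was not tested. Females minus males, the median differences on the log2(TMM-scaled FPKM + 1) scale were -0.84 for Sall1 and -1.32 for Spi1 in macrophages, and -0.67 for Sall3, -0.63 for Spi1 and -0.71 for Irf8 in microglia. On FPKM without TMM scaling, Sall1 in macrophages kept this pattern and the other 4 did not. Sall1 lay near the floor in macrophages, with FPKM of 0.02 to 1.53 and 2 counts in the male WT PFF library. The 3 cases in microglia use the female CD163KO MONO library with Y-linked counts in 1 of their female pairs. Both male pairs of each population hold 1 crossed library. The part of the length profile in them cannot be told apart from that of sex.

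Counts of Ddx3y, Uty, Kdm5d and Eif2s3y, which are on the Y chromosome, came to 799 in CD163KO MONO microglia labelled female, where the remaining female libraries held at most 2.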

How the results depend on the processing

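Between the populations 2499 genes were called, against 6310 with library totals, 4923 with DESeq2, 6329 and 6434 with limma on log2(FPKM + 1) and log2(FPKM + 0.1), 4869 without male WT PFF and 3785 with the length profile term. Leaving out 1 matched group at a time gave 1767 to 4869. The members whose values reversed between populations were Maf, Spi1, Mef2c and Runx1. Maf was -0.0275 without both libraries of the female CD163KO MONO group, -0.0692 with the profile term and -0.77 with length and GC offsets. Spi1 was 0.0723 with library totals, and 0.0467 and 0.0465 with limma and pseudocounts of 1 and 0.1. Mef2c was -0.029 and Runx1 -0.76, both with the offsets. In the genotype fit of microglia Cebpb reversed (0.0155 without male WT PFF, 0.28 with the profile term). The cause was not tested. Leaving out 1 group gave Maf -0.0275 to 0.35 between populations, and leaving out 1 library gave Cebpb -3.47 to 0.0155 by genotype.

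Treatment in macrophages called 1 gene with library totals and with limma (pseudocount 1), 71 with DESeq2 and 4 with limma (pseudocount 0.1) and without male WT PFF, and 0 to 4 when 1 library was left out. Treatment in microglia called 3 with library totals, 116 with DESeq2, 1 with limma (pseudocount 1) and without male WT PFF, 11 with no filter on low counts, and 0 to 1 when 1 library was left out. Genotype in macrophages called 2, 56, 4 and 5 genes with library totals, DESeq2 and limma with pseudocounts of 1 and 0.1, 5 without male WT PFF, and 0 to 5 when 1 library was left out. Genotype in microglia called 64 with DESeq2 and 19 with no filter. No member was called in any setting of these 4 fits. The limma settings of macrophages tested only 7 of the 9 members, and some leave-one-out settings 8. In the main fits the SE of a member reached 3.97 in macrophages and 1.44 in microglia. The transcript shares gave 0 calls in each of the 10 settings, which says nothing of their stability, since the smallest p that the 6 to 8 pairs allow is 0.03125 to 0.0078125 before adjustment. With no matched-group block 2979 genes were called between populations.

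Of the values of members under alternatives, 297 kept their direction and side of the threshold, 12 reversed, 6 passed it and 2 no longer did. Some settings are the same fit under different names, so these counts hold duplicates. No paired analysis by replicate number was possible because each group is 1 library.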
